A study of Mus musculus with 24 samples.

Results

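The genes described here are 40 interferon response genes, a list of genes known to be induced by interferon or to carry its signal, taken by symbol from a table of 17721 mouse genes through their Ensembl identifiers. All 40 were in the table. The table compares the daily expression rhythms of epidermis from mice with a knockout of Bmal1 (gene symbol Arntl) driven by K14-Cre, called EpiKO, with those of wild-type (WT) epidermis. The 24 samples of the series are EpiKO back skin epidermis of 8-week-old male C57BL/6 mice, 4 at each of 6 zeitgeber times (ZT) 4 h apart from ZT0, when the lights came on, in a cycle of 12 h light and 12 h dark. WT libraries are not samples of the series, and their values come only from the fit. Bmal1 encodes the core activator of the circadian clock. The keratin 14 promoter drives Cre in keratinocytes, not in the Langerhans cells and lymphocytes that share the epidermis, and the labels name no control that carries Cre alone. The table names its other side by an abbreviation, which was read as EpiKO since the comparison had only 2 sides.

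Interferons are cytokines released when a cell senses viral nucleic acid or when lymphocytes are activated. Type I interferons signal through the kinases JAK1 and TYK2 to a complex with STAT2 and IRF9, which binds the interferon-stimulated response element (ISRE) in the promoters of antiviral genes, while interferon gamma acts through a receptor of its own. In skin the pathway also sets how well keratinocytes present antigen to T lymphocytes.

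For each gene the authors' deposited table gives a weight, between 0 and 1, for each of 5 models: no rhythm, a rhythm in EpiKO only, a rhythm in WT only, the same rhythm in both, or different rhythms. A weight of at least 0.5 was required to assign a gene to a model. Weights are not p-values. The table holds fitted means and curves and no value per library, so the depth and the spread between animals are unknown, no test over samples could be run, and every difference below is a fitted value without a standard error. Genotype and the way each set of libraries was made and counted cannot be told apart.

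Arntl itself was assigned a rhythm in WT only with a WT peak at ZT22.7 and 0.882 as its weight in the authors' deposited table. The fitted mean in the authors' deposited table was 9.65 (log2) in EpiKO and 9.50 in WT, a value summed over the whole gene that does not measure the deleted part. Keratinocyte markers were present at high levels on both sides, and Krt14 had a single mean of 16.54 (log2) in the authors' deposited table.

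Members with a daily rhythm in WT were few, and promoter windows are described first. Promoter windows, from 250 bases before to 50 bases after the start site, were found for 30 of the 40 members in RefSeq (GRCm38.p6). An ISRE core, searched as GAAA, any 2 bases, then GAAA, on both strands, was in 16 of these 30 windows (53.3%), against 3.99% of 27025 genes with a window. Among rhythmic members with a window 6 of 7 had a match, and among members assigned no rhythm 9 of 20 had one. The 6 were Gbp2, Ifih1, Eif2ak2, Bst2, Gbp7 and Ddx58. The last 4 were assigned a rhythm with weights of 0.532 to 0.560, near the limit of 0.5, in the authors' deposited table. Parp14 had no window, and that of Cmpk2 held no match. Whether a match goes with a rhythm was not tested. The sequences below are the windows of 5 rhythmic members with a match and of Isg15, the ubiquitin-like modifier, which had 3 overlapping matches and no rhythm. They are written 5′ to 3′ on the gene's own strand in lower case, with the ISRE matches in capitals (a match on the other strand reads TTTC, 2 bases, TTTC). The windows are, in the same order, chr3:142620413-142620712 (plus strand), chr3:142530086-142530385 (plus), chr4:40239776-40240075 (minus), chr2:62646206-62646505 (minus), chr8:71537423-71537722 (minus) and chr4:156200769-156201068 (minus).
Gbp2: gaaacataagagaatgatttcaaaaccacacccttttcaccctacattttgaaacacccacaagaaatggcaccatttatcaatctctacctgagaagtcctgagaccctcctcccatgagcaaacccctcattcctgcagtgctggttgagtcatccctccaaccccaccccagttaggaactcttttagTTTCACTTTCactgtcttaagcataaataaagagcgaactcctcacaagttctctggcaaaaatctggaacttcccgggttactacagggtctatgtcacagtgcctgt
Gbp7: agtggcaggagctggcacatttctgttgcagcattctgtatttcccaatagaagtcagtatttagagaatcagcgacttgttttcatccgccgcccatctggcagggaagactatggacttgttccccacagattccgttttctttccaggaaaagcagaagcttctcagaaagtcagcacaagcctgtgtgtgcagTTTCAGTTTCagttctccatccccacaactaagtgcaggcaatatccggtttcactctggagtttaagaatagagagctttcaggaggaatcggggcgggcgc
Ddx58: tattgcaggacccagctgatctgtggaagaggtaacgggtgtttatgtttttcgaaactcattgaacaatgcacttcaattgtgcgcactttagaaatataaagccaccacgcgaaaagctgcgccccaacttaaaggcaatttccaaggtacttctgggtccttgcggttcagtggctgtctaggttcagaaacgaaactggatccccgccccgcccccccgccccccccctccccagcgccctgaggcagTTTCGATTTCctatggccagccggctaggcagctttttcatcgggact
Ifih1: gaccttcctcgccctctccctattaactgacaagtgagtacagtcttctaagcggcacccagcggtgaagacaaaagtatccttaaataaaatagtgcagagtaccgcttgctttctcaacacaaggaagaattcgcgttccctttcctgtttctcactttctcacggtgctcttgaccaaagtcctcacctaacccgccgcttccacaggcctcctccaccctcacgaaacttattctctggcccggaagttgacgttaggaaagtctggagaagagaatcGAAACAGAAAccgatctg
Bst2: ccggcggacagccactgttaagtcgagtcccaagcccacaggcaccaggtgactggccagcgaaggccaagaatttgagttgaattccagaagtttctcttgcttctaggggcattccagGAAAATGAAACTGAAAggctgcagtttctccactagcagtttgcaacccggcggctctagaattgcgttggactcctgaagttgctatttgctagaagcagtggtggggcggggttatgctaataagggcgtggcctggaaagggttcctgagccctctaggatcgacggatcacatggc
Isg15: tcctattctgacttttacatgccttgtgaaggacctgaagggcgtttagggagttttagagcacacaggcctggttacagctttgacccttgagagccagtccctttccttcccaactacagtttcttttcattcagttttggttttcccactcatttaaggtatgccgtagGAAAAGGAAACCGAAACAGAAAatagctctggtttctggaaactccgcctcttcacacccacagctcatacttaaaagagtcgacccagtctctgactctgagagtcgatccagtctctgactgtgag

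Counting the start site as +1, the first base of the match lay at -59 in Gbp2, at -53 in Gbp7, at 3 in Ddx58 and at 33 in Ifih1. Bst2 had overlapping matches at -130 and -124, Isg15 at -78, -72 and -66, and Eif2ak2, whose window is not printed, had 1 at 19. The window of Cmpk2 held no match. A STAT site core (TTCNNNGAA, both strands) was in 10 of the 30 windows (33.3%), against 9.55% of all genes, and it overlapped an ISRE match in Ifitm3 and in Bst2. The E-box CACGTG, the sequence bound by BMAL1 with its partner CLOCK, was in 1 of the 30 windows, that of Trim25, which was assigned no rhythm, against 8.09% of all genes. These matches describe letters in a window and do not show binding.

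Of the 40 members 8 were assigned a rhythm (20%), against 32.0% of all 17721 genes. A rhythm in WT only was assigned to 4 members (Gbp2, Gbp7, Parp14 and Ddx58), beside 8.41% of all genes, and the same rhythm in both genotypes to 4 (Ifih1, Eif2ak2, Cmpk2 and Bst2), beside 16.7% of all genes. No member was assigned a rhythm in EpiKO only (4.31% of all genes) or different rhythms (2.65%), 28 had no rhythm, and 4 reached the limit for no model. Rhythms were assigned more often at higher levels. Of the 17 members whose level reached the median of all genes 5 were rhythmic (29.4%), against 45.5% of such genes. These were 3 in WT only (12.1% of such genes) and 2 with the same rhythm (24.9%), with none in EpiKO only (4.84%) or with different rhythms (3.59%). Below that level 3 of 23 members were rhythmic (13%), against 18.6% of such genes.

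Gbp2, a guanylate-binding protein that coats membranes of intracellular pathogens (chromosome 3, 142620602 to 142638008, mm10), had the largest amplitude of the 8. Its fitted WT level was 7.10, 7.75, 8.25, 8.11, 7.47 and 6.96 (log2) at ZT0, ZT4, ZT8, ZT12, ZT16 and ZT20, while the EpiKO level was 8.48 at all times. The flat EpiKO level lay above the whole WT curve, including its highest point of 8.29. The WT curve spanned 2.57-fold from trough to peak and peaked at ZT9.21, with 0.863 as its model weight in the authors' deposited table. Its neighbour Gbp7 (142530342 to 142550149) had a 1.77-fold WT rhythm that peaked at ZT7.62, weighted 0.541 in the authors' deposited table. The fitted WT level of Gbp7 was 6.32, 6.73, 6.90, 6.66, 6.25 and 6.08 (log2) at the 6 times, around the EpiKO level of 6.49. A single mean was fitted to both genotypes for Gbp7, which places the flat EpiKO line at the middle of the WT curve. Gbp7 shares 11.3% of its exonic bases with another gene on the same strand and 12.6% of its 51-base windows with other genes, so its reads are less certain. Gbp3, which lies between the pair (142560026 to 142573209), was assigned no rhythm (weight 0.787 in the authors' deposited table).

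Parp14, an ADP-ribosyltransferase (chromosome 16, 35832874 to 35871544), had a 1.42-fold WT rhythm that peaked at ZT6.67, weighted 0.844 in the authors' deposited table. Its fitted WT level was 9.15, 9.39, 9.43, 9.24, 9.01 and 8.96 (log2) at the 6 times and its EpiKO level was 9.20. For Parp14, as for Gbp7, a single mean was fitted to both genotypes, which places the flat EpiKO line at the middle of the WT curve. Parp9, which lies near Parp14 with Dtx3l between them (35938470 to 35972605), fell short of the limit for WT only at 0.4999 in the authors' deposited table. The unassigned Parp9 curve peaked at ZT6.01 in WT in the authors' deposited table, within 1 h of Parp14. Dtx3l, the ubiquitin ligase partner of PARP9, was assigned no rhythm (weight 0.890 in the authors' deposited table).

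Ddx58, which encodes the RNA sensor RIG-I (chromosome 4, 40203773 to 40239828), had a 1.34-fold WT rhythm that peaked at ZT2.95, weighted 0.560 in the authors' deposited table. Its fitted WT level was 8.25, 8.30, 8.15, 7.94, 7.89 and 8.04 (log2) at the 6 times, below the EpiKO level of 8.57 throughout. The related sensor Ifih1, which encodes MDA5 (chromosome 2, 62595798 to 62646255), was assigned 1 shared curve of 1.20-fold peaking at ZT6.29, weighted 0.718 in the authors' deposited table. The third member of this receptor family, Dhx58 (LGP2), was assigned no rhythm (weight 0.725 in the authors' deposited table).

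The other shared rhythms differed in their time of day. Eif2ak2, which encodes the kinase PKR that stops translation on double-stranded RNA, cycled 1.14-fold and peaked at ZT5.61, weighted 0.532 in the authors' deposited table. Cmpk2, a mitochondrial nucleotide kinase (chromosome 12, 26469204 to 26479837), cycled 1.53-fold and peaked at ZT21.3, weighted 0.895 in the authors' deposited table. Its fitted level ran from 4.97 at ZT8 to 5.55 at ZT20 in WT and from 5.64 to 6.22 at the same times in EpiKO (log2), so the 2 curves did not overlap. Rsad2 (viperin), its neighbour on chromosome 12, was left unassigned, with no rhythm as its leading model at 0.489 in the authors' deposited table. Bst2 (tetherin), which holds budding virus at the cell surface, cycled 1.43-fold and peaked at ZT20.0, weighted 0.536 in the authors' deposited table. Ifih1 and Eif2ak2 thus peaked in the light phase, and Cmpk2 and Bst2 late in the dark phase.

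**Figure D1:**
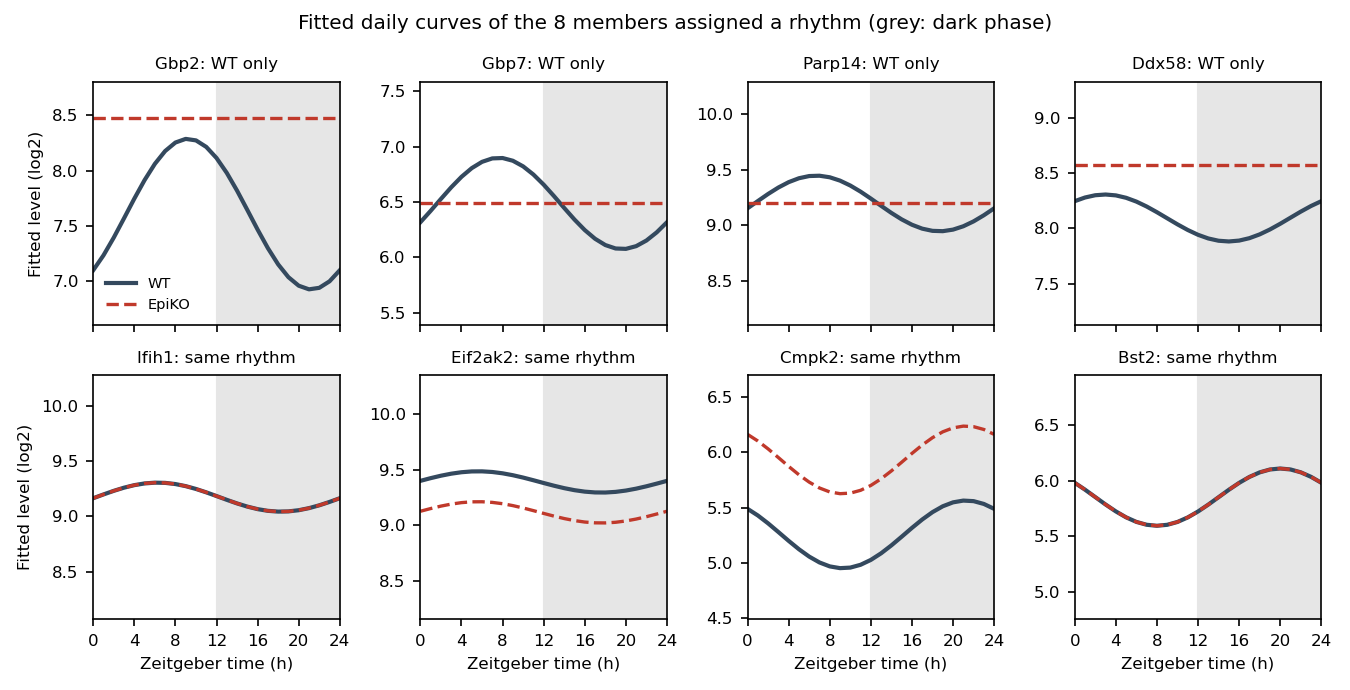
Fitted level (log2) against zeitgeber time (h) of the 8 members assigned a rhythm, with WT as solid and EpiKO as dashed lines and the dark phase in grey; every panel spans the same log2 range. In Gbp2 the WT curve runs between 6.93 and 8.29 beneath a flat EpiKO line at 8.48, and in the lower row both genotypes follow 1 curve shape.

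WT peaks fell in the light phase for 6 of the 8 rhythmic members, including all 4 rhythmic in WT only, while 47.9% of the 4914 genes rhythmic in WT peaked there. Several assignments stood close to the limit. Inside it were Eif2ak2 (0.532), Bst2 (0.536), Gbp7 (0.541) and Ddx58 (0.560), and outside it Parp9 (0.4999), Rsad2 (0.489) and Irf9 (0.483, leading model no rhythm) in the authors' deposited table. Members assigned no rhythm also stood just inside the limit, namely Adar (0.532), Usp18 (0.533), Irf1 (0.546) and Irf7 (0.575) in the authors' deposited table. Ifi35 was unassigned as well, with the same rhythm leading at 0.391 in the authors' deposited table.

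Weights summed over models give the support for a rhythm in each genotype without a limit. For a rhythm in WT and in EpiKO they were 0.973 and 0.112 for Gbp2, 0.959 and 0.116 for Parp14, 0.764 and 0.211 for Ddx58, and 0.652 and 0.123 for Gbp7. The values were 0.956 and 0.940 for Cmpk2 and 0.967 and 0.750 for Ifih1, so support was high on both sides there. Usp18 went the other way, with 0.059 for WT and 0.455 for EpiKO, the highest weight on the EpiKO-only model of any member (0.408 in the authors' deposited table), below the limit. The weight was larger for WT than for EpiKO in 23 of 40 members (57.5%), close to the 57.8% of all genes. Averaged over members, no rhythm took 62.2% of the weight (51.3% over all genes), the same rhythm 15.0% (21.2%), WT only 14.7% (13.5%), EpiKO only 6.90% (9.0%) and different rhythms 1.27% (4.94%).

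**Figure D2:**
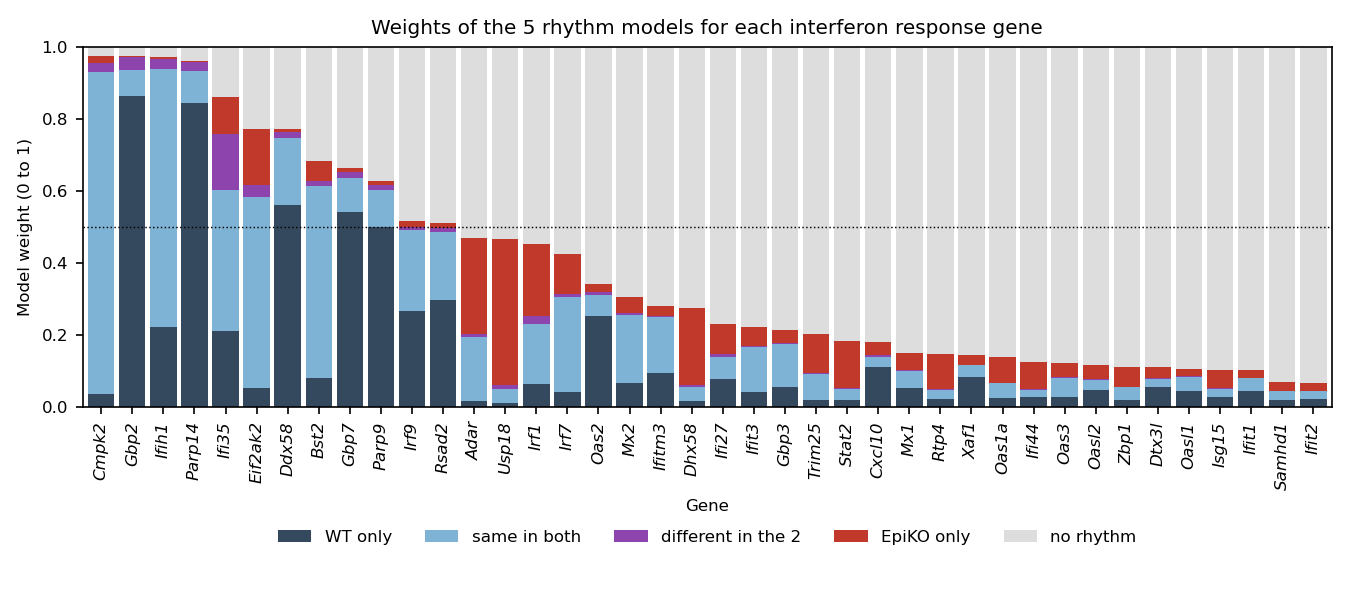
Weight (0 to 1) of each of the 5 rhythm models for each of the 40 members, ordered by the summed weight of the 4 models with a rhythm; the dotted line marks 0.5. A rhythm takes nearly all of the weight for Cmpk2, Gbp2, Ifih1 and Parp14, and no rhythm takes most of it for the members on the right.

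Genes of antigen presentation, another group that interferons induce, peaked in the light phase where they were assigned a rhythm in WT. Of 13 genes of MHC class I and antigen processing, 5 were rhythmic in WT only (8.41% of all genes). The same rhythm in both was assigned to 1 (16.7%) and a rhythm in EpiKO only to 1 (4.31%). Of the 13 genes 12 reached the median level of all genes, where these shares were 12.1%, 24.9% and 4.84%. The 5 in WT only were H2-K1 and H2-D1, which encode class I heavy chains, the transporter subunit Tap2, the immunoproteasome subunit Psmb8 and the proteasome activator Psme1. Psmb8 cycled 1.44-fold with a peak at ZT9.36, and H2-D1 1.17-fold with a peak at ZT9.37, in the authors' deposited table. Tap1, the partner of Tap2, shared a 1.20-fold rhythm in both genotypes with a peak at ZT7.23 in the authors' deposited table. WT peaks of all 6 lay in the light phase, between ZT6.33 and ZT9.37 in the authors' deposited table. H2-K1 (0.524), Psme1 (0.549), Tap1 (0.558) and Tap2 (0.558) had weights near the limit in the authors' deposited table. Tap2 and Psmb8 share 18.5% and 14.7% of their exonic bases with a gene on the opposite strand, which can mix their reads if strand was ignored.

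**Figure D3:**
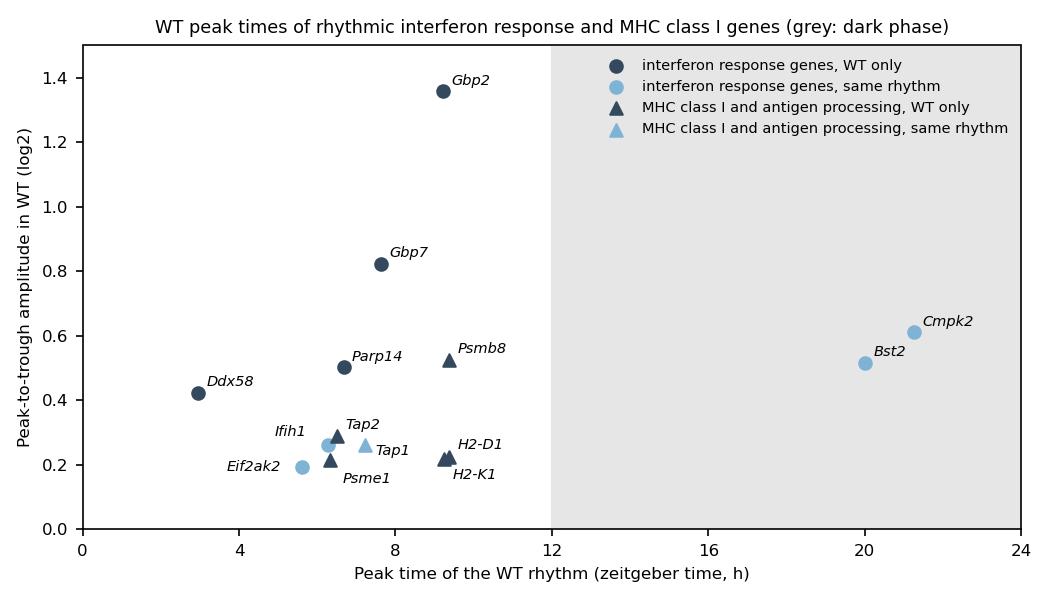
Peak time of the WT rhythm (zeitgeber time, h) against its peak-to-trough amplitude (log2) for the 8 rhythmic members (circles) and 6 MHC class I and antigen processing genes rhythmic in WT (triangles), with the dark phase in grey. The 6 antigen processing genes and 6 of the 8 members lie in the light phase, and Gbp2 has the largest amplitude at 1.36.

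Fitted means differed between genotypes in both directions. Of the 40 members 23 were called different (57.5%), against 70.1% of all genes. The mean was higher in EpiKO for 10 (32.7% of all genes) and lower for 13 (37.4%), and the median difference was 0.00 over members and over all genes. A single mean was fitted to both genotypes for the 17 others, which sets their difference to 0. Among the 17 members at or above the median level 7 were higher (44.4% of such genes) and 6 lower (36.7%). Differences are EpiKO minus WT, in log2.

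Of the transcription factors, Irf9 was higher in EpiKO by 0.31 and its partner Stat2 lower (difference -0.29). In the authors' deposited table the EpiKO and WT means were 9.67 and 9.35 for Irf9, and 9.08 and 9.37 for Stat2 (log2). Irf1 and Irf7 were not called different.

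Among 11 nucleic acid sensors and responders, 3 were higher and 4 lower. The oligoadenylate synthetases Oas1a, Oas2 and Oas3, which activate RNase L on viral RNA, lie in 1 gene cluster on chromosome 5. Oas3 (120753098 to 120777661) had EpiKO and WT means of 3.67 and 6.18 (log2) in the authors' deposited table, a difference of -2.51 and the largest among members. Oas1a (120896256 to 120907521) differed by -1.58. Oas2 (120730333 to 120749853), weighted 0.835 in the authors' deposited table, was higher by 0.63. The mean level of Oas2, 2.65 (log2), lay below the 0.25 quantile of all genes (2.92). Outside the member list Oas1b, with 5.71 in EpiKO and 7.15 in WT, was lower (log2, the authors' deposited table). So were Oas1c (7.28 and 7.88) and Oas1g (2.70 and 4.94) in the authors' deposited table. Oasl1 and Oasl2 were not called different. Ddx58 was higher by 0.47, Zbp1, a sensor of Z-form nucleic acid, by 0.64 (weight 0.590 in the authors' deposited table), and the RNA editing enzyme Adar was lower (-0.65) as was Eif2ak2 (-0.27).

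Among 10 genes that restrict translation, nucleotides and entry, Cmpk2 (0.67) and the endosomal entry inhibitor Ifitm3 (0.41) were higher. The RNA-binding proteins Ifit1 (-1.18) and Ifit3 (-1.14, weight 0.530 in the authors' deposited table) and the dNTP hydrolase Samhd1 (-0.19) were lower. Ifit2, Mx1, Mx2, Rsad2 and Bst2 were not called different.

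Genes of the ISG15 system differed in both directions. Usp18, the protease that removes ISG15 and restrains the receptor (chromosome 6, 121245906 to 121270917), had means of 8.71 and 7.71 (log2, EpiKO and WT) in the authors' deposited table, the largest positive difference among members at 2.0-fold. Isg15 was at 4.75 and 5.56 in the authors' deposited table, lower in EpiKO by a difference of -0.81. The ubiquitin ligases Dtx3l (-1.0) and Trim25 (-0.16) were lower, and Parp9 was higher (0.24). Gbp2 was higher by 0.87, or 1.83-fold, while Gbp3 and Gbp7 were not called different. Of the remaining members Ifi27 was higher (0.38), and Xaf1, a pro-apoptotic gene (chromosome 11, 72301629 to 72313733), and Ifi44 were lower. The EpiKO and WT means of Xaf1 were 6.30 and 8.74 (log2) in the authors' deposited table, a difference of -2.44, and Ifi44 differed by -1.66. Cxcl10, Ifi35 and Rtp4 were not called different.

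**Figure D4:**
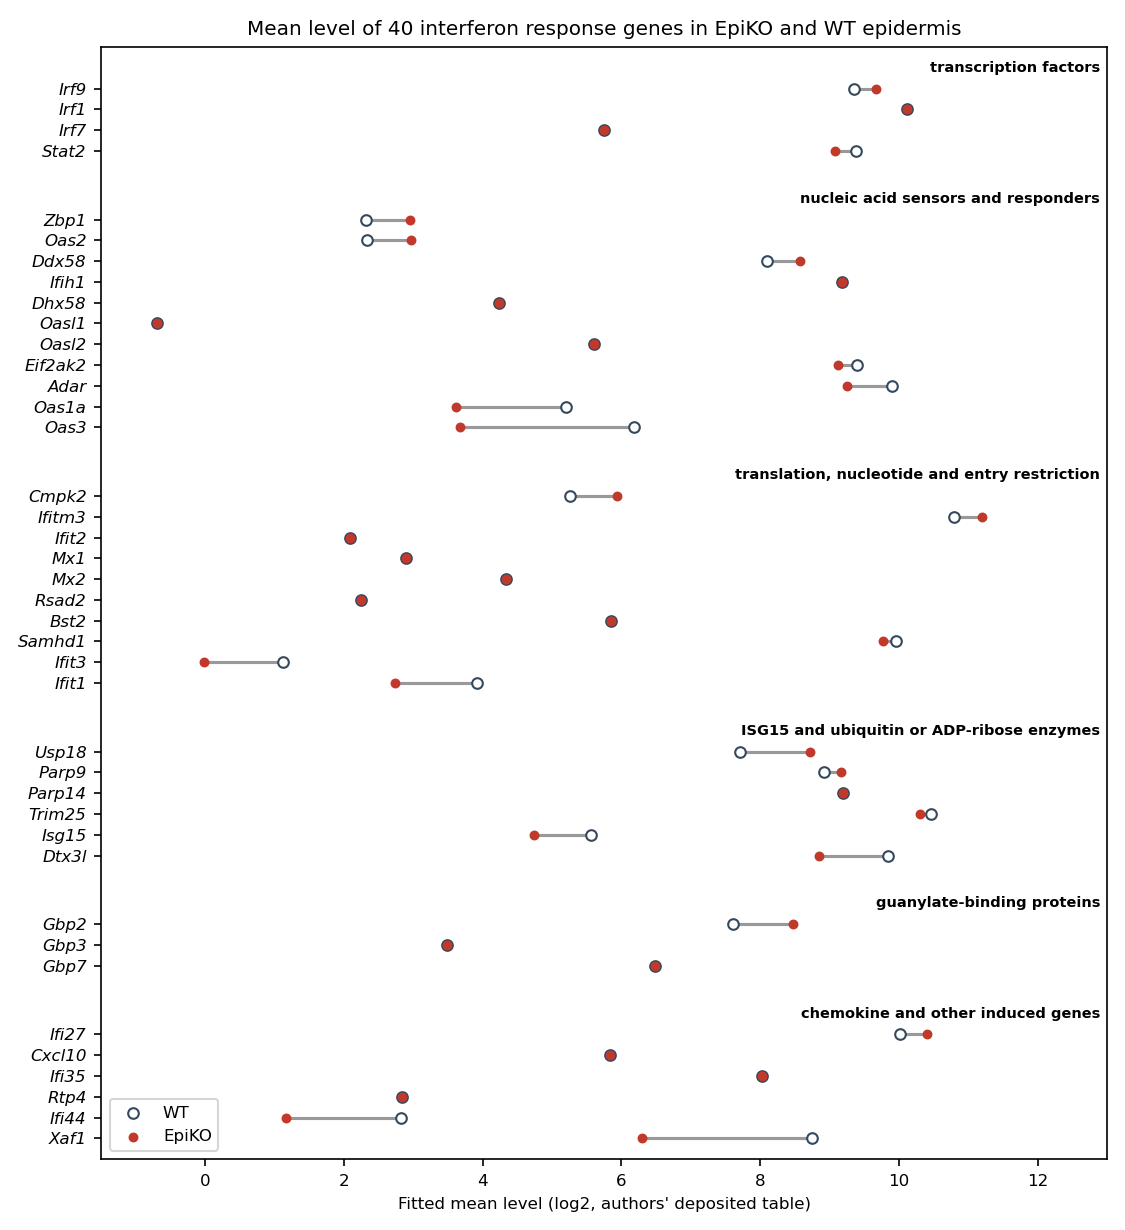
Fitted mean level (log2) of the 40 members in WT (open circles) and EpiKO (filled circles), grouped by role, with a line joining genotypes that were called different. Oas3 and Xaf1 lie furthest to the left of their WT values, by -2.51 and -2.44, and 17 genes have 1 value for both genotypes.

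Mean differences varied with the overlap between genes. Genes that share over 50% of their exonic bases with another gene on the same strand (249 genes) had a median difference of -4.33, and 85.9% of them were lower in EpiKO by more than 1. Among the 11588 genes with no exonic overlap on either strand the median was 0.00, with 15.5% lower by more than 1 and 4.82% higher by more than 1. Overlap of over 50% on the opposite strand (172 genes) went with a median of -1.71, with 62.2% lower by more than 1. Of the genes with no overlap 34.3% were called higher and 33.1% lower, and of the 24 members among them 6 were higher and 10 lower. Oas3, Xaf1, Ifi44, Oas1a, Ifit1, Ifit3 and Isg15 have no exonic overlap. Reads that fit several genes are a separate matter, since 57.0% of the 51-base windows of Oas1a occur in another gene (chiefly Oas1g), as do 50.8% of those of Ifit3 (chiefly Ifit3b). The levels of Oas1a and Ifit3 are therefore uncertain, while Oas3, Xaf1 and Ifi44 share at most 1.55% of theirs. Ifi44 was low, however, with means of 1.16 in EpiKO and 2.82 in WT (log2, the authors' deposited table). Its mean level, like those of Ifit3, Oas2 and Zbp1, lay below the 0.25 quantile of all genes (2.92), so these differences are less certain. Adar shares 16.8% of its exonic bases with Chrnb2 on the opposite strand, Dtx3l 8.00% with Parp9 and Parp9 9.40% with Dtx3l. Whether the mean differences come from counting was not tested.

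Other parts of the pathway differed in both directions as well. The interferon gamma receptor chain Ifngr1 was higher by 0.45 and had a 1.75-fold rhythm in both genotypes that peaked at ZT11.2, weighted 0.928 in the authors' deposited table. Its partner Ifngr2 was assigned a rhythm in EpiKO only (1.23-fold, weight 0.826 in the authors' deposited table). Ifnar1, a chain of the type I receptor, was lower (-0.26) and without a rhythm. Among 10 feedback inhibitors none was higher (32.7% of all genes) and 5 were lower (37.4%), among them Socs1 (-0.47). Of these inhibitors 3 were rhythmic (32.0% of all genes), with Ptpn1 in WT only. Usp18, which restrains the receptor as well, was counted among the members and is not in this list. Its mean was 2.0-fold higher in EpiKO. Of 18 genes that sense nucleic acid upstream of interferon, 5 were higher (32.7% of all genes) and 4 lower (37.4%), and 3 were rhythmic in WT only (8.41%). The endosomal receptor Tlr3 shared a 1.38-fold rhythm with a peak at ZT4.20 in the authors' deposited table, and the DNA sensor Cgas and the signalling adaptors Ticam1 and Traf3 were rhythmic in WT only. Of 9 genes that remove nucleic acid and so limit such sensing, 4 were rhythmic in WT only (8.41% of all genes) and 3 had the same rhythm (16.7%). In this list 6 means were higher (32.7% of all genes) and 3 lower (37.4%), but only 2 of the 9 genes have no exonic overlap. Trex1, the lowest (-10.74), lies wholly under another gene on the same strand. Rnaset2a, with means of -0.04 in EpiKO and 10.24 in WT (log2, the authors' deposited table), also differed widely. So did Dnase2a, with 10.47 and 5.89 in the authors' deposited table.

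Of 43 further interferon-induced genes 14 were higher (32.7% of all genes) and 21 lower (37.4%), and 7 were assigned a rhythm (32.0%). None of the 5 that were rhythmic in WT peaked in the light phase, where all 6 antigen presentation genes rhythmic in WT did. Their WT peaks ran from ZT12.8 for Pml through Slfn9, Ifi30 and Znfx1 to ZT23.0 for Tdrd7 in the authors' deposited table. Lgals3bp (1.71), Samd9l (1.23) and Slfn2 (1.06) were the highest above WT, and Ifit3b (-6.56) and Sp110 (-5.10) the furthest below. The level of Ifit3b is as uncertain as that of Ifit3, with which it shares 51-base windows. Shared windows were counted for members only, so none are known for Sp110. The counts that follow stand beside the same shares of all genes. Of 12 interferon gamma GTPases 3 were higher, 5 lower and none rhythmic. Of 6 chemokines Ccl2 (1.03) and Ccl7 (0.78) were higher, Cxcl9 (-0.97) and Cxcl11 (-1.39) lower, and none was rhythmic. Of 10 listed interferons 3 were in the table. All 3 had mean levels below the 0.25 quantile of all genes (2.92, log2), so their differences are uncertain. Ifng had a single mean of 0.72 (log2) in the authors' deposited table. Ifnk, the interferon of keratinocytes, was lower, with means of 0.06 in EpiKO and 2.05 in WT (log2, the authors' deposited table), as was Ifnz, with -2.29 and 3.74 (log2, the authors' deposited table).

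Markers of other cell types differed between genotypes to unequal extents, and 70.1% of all genes were called different. All 10 Langerhans and dendritic cell markers were higher in EpiKO, by 0.42 to 1.63, and the log2 of their summed level was 11.86 in EpiKO and 10.71 in WT. Cd207 (langerin) had means of 7.28 in EpiKO and 5.80 in WT (log2, the authors' deposited table). Of 9 T lymphocyte markers 5 were higher and none lower, with log2 sums of 11.57 and 10.61, or 9.27 and 8.71 without Thy1. Fibroblast markers, which also include Thy1, were higher in 4 of 7 cases, with sums of 11.70 and 10.86, or 9.79 and 9.48 without Thy1. Endothelial markers were higher in 5 of 6 cases (5.43 and 4.93). Macrophage and monocyte markers went both ways, with 6 higher and 4 lower, and of 9 keratinocyte markers 2 were higher and 3 lower. Of 7 plasmacytoid dendritic cell markers 1 was higher and 4 lower, and 2 of 6 neutrophil and 2 of 7 melanocyte markers were lower with none higher, while 37.4% of all genes were lower. Log2 sums in EpiKO and WT were 8.16 and 9.36 for macrophage and monocyte markers, and 19.44 and 19.57 for keratinocyte markers. They were 14.17 and 13.86 for plasmacytoid dendritic cell, 3.47 and 10.00 for neutrophil, and 9.29 and 10.03 for melanocyte markers. The plasmacytoid dendritic cell sum lay close to Ly6d alone (14.01 and 13.54 in the authors' deposited table). Ly6d was the 1 marker that was higher, so this sum does not follow the 4 lower ones. The neutrophil sums differed through Cxcr2 (1.32 and 9.25) and Csf3r (-0.04 and 8.67 in the authors' deposited table). The other neutrophil markers each had a single mean. Single markers differed by as much as -6.68 (macrophage and monocyte), -9.43 (plasmacytoid dendritic cell), -8.71 (neutrophil) and -5.05 (melanocyte). In bulk RNA fewer cells of a type and less RNA per cell cannot be told apart, and the part of these cells in the members' differences was not tested.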

How the data were processed

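The analysis used 1 table of 17721 genes in which, per the series design text, the authors compared EpiKO with WT epidermis by dryR, which fits a cosine curve per group. Tools named by the submitters' processing notes are featureCounts 1.6.0, edgeR, HISAT2 2.2.1, Trimmomatic 0.36 and SAMtools 1.3.1, with mm10 as the build, and per the labels' protocols stranded libraries were read over 51 bases. The order, settings, strand option of the counting and scaling between libraries are not given in the sources used here. Model weights are scores from 0 to 1 that the authors deposited, made from the Bayesian information criterion per the file headers. The fitted means and curves are in log2 units in the table the authors deposited. From the curve's coefficients (tolerance 1e-06, 5914 WT and 5062 EpiKO rhythms) the table's amplitude is the height from trough to peak, and a fold is 2 to that power. Neither counts nor library values were used here, so the depth is unknown and replicates were not compared.

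Symbols matched 17720 of 17721 identifiers. A gene was assigned the model with the largest weight if that weight was at least 0.5, and its mean was called different by the same limit. Values at the 6 sampled times were computed from the fitted curves. Exonic overlaps, positions and shared 51-base windows come from GENCODE M21, and promoters from RefSeq (GRCm38.p6). The members, roles, pathway lists and marker lists were chosen with earlier results of these data known. Every member could be named, with values for those called different, assigned a rhythm or within 0.1 of a limit. From other lists up to 4 genes by mean difference and 4 by amplitude could be named, and not all of these are. Scripts were tested on simulated data. Python 3.11.15, NumPy 2.4.6, pandas 2.3.3 and matplotlib 3.10.9 were used. Alternatives were other weight limits, a minimum amplitude or difference, other centrings of the means, filters on level, shared windows and exonic overlap, and sums of model weights.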

Additional observations from a re-analysis of the deposited data

How the results depend on the processing

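The counts rest on a limit of 0.5 for the weight, and no value has a standard error. With a limit of 0.8 the 8 rhythmic members became 3, the 4 in WT only became 2 (Gbp2 and Parp14) and the 4 with the same rhythm became 1 (Cmpk2). Sums of model weights over the 40 members were 15.1 for any rhythm, 6.00 for the same rhythm, 2.76 for EpiKO only and 0.507 for different rhythms. With a minimum mean difference of 0.5 (log2) 5 members were higher in EpiKO, and among members with at most 5% of windows shared 8 were lower. Other alternatives were chosen after seeing the data. Without exonic overlap 6 members were higher, 4 were rhythmic and 1 was rhythmic in WT only (Ddx58). At or above the median mean level 6 members were lower, 5 were rhythmic and 2 had the same rhythm. Centring on the median over genes called different (-0.14) moved the median difference of members to 0.14, and each of the 23 called differences kept its sign. The other alternatives left each count within 1.5 times the main one. No paired analysis was possible because the table holds no values per library, and for the same reason no replicate could be left out.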
